A study of Mus musculus with 89 samples.

Results

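The protocadherin genes of the beta cluster and the non-clustered protocadherin genes were taken by symbol, 31 in all: 20 beta genes, Pcdhb1 to Pcdhb20, and 11 non-clustered genes, Pcdh1, Pcdh7, Pcdh8, Pcdh9, Pcdh10, Pcdh11x, Pcdh12, Pcdh17, Pcdh18, Pcdh19 and Pcdh20. Each has 1 probe set of the 22206 on the array, and no filter on signal was applied, so all 31 were tested. The gene sets were chosen with earlier results of these data known. Pcdh1 and Pcdh12 also lie on chromosome 18, and Pcdh11x and Pcdh19 on the X chromosome. None of the 31 belongs to the triplicated genes. Pcdhb21, Pcdhb22, Pcdh15 and the alpha and gamma clusters were not analysed here. The beta genes are close relatives in sequence, and how far the probes of one also bind the transcript of another was not tested, so the members are not independent measurements.

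Protocadherins are cell surface proteins of the cadherin superfamily by which neurons recognise one another. The beta cluster is a row of single-exon genes on mouse chromosome 18, each with a promoter of its own. Each neuron switches on a few clustered protocadherins by a partly random choice of promoters, which depends on the DNA-looping factor CTCF and on cohesin, and the resulting mix of proteins binds the same mix on another cell. This serves self-avoidance of branches and the wiring of circuits. Non-clustered protocadherins are encoded by single genes scattered over the genome, are switched on by region and cell type, and several of them act on the actin cytoskeleton through the WAVE complex.

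Forebrain RNA of 89 mouse embryos at embryonic day 18.5 was hybridised to Clariom S arrays, 1 embryo to an array. There were 23 Ts65Dn and 18 EupTs65Dn embryos from 6 litters, and 24 Ts66Yah and 24 EupTs66Yah embryos from 6 litters. Ts65Dn mice carry an extra chromosome made of a distal part of mouse chromosome 16, rich in orthologues of human chromosome 21 genes, joined to a proximal part of chromosome 17. Ts66Yah mice were derived from them and lack the chromosome 17 part, and EupTs65Dn and EupTs66Yah are euploid embryos of the same litters. All embryos were on a mixed B6 and C3H background, both sexes were used, and no group was treated. In the Ts65Dn colony the extra chromosome came only through the mother. The Ts66Yah colony was expanded from founder females by in vitro fertilisation with sperm of Ts66Yah males.

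Values are log2 signals, and 1 unit is a doubling. Signals of different probe sets are not compared as transcript levels. The 2 colonies lay at different overall levels, with array means of 5.26 to 5.33 in the Ts65Dn colony and 6.05 to 6.41 in the Ts66Yah colony, so each trisomic group was set against its own euploid group. EupTs66Yah replicate 16 had a standard deviation (SD) of 1.13 over its probe sets, against 2.23 to 2.39 for the other 23 arrays of its group; below, this is the low-spread array. Triplicated chromosome 16 genes in 4 arrays matched the opposite genotype (Ts65Dn replicate 18, Ts66Yah replicates 13 and 24, EupTs66Yah replicate 24), and in 17 arrays the Y-linked genes went against the sex label. No 2 arrays held identical values. Precision is limited by how many arrays each group has.

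Mean signals of the beta genes were lower in Ts65Dn than in EupTs65Dn forebrain, while those of the non-clustered genes were nearly equal. The mean of the 20 beta probe sets in an embryo was 5.43 ± 0.12 (SD, n = 23) in Ts65Dn and 5.58 ± 0.17 (SD, n = 18) in EupTs65Dn, a log2 difference of -0.15 (SE 0.048). In Ts65Dn it ran from 5.18 to 5.74 with a median of 5.40, and in EupTs65Dn from 5.25 to 5.97 with a median of 5.59. The groups overlapped, with 21 of the 23 Ts65Dn embryos under the EupTs65Dn median and 1 under the lowest EupTs65Dn embryo. Trisomic embryos had the lower beta mean in 5 of 6 litters, and the differences within litters lay between -0.23 and 0.04. The mean of the 11 non-clustered probe sets was 7.33 ± 0.11 (SD, n = 23) in Ts65Dn and 7.33 ± 0.11 (SD, n = 18) in EupTs65Dn, a difference of 0.00060 (SE 0.034), and 10 of 23 Ts65Dn embryos lay under the EupTs65Dn median. Since these are whole tissue samples, fewer cells of a type and less RNA per cell cannot be told apart.

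**Figure D1:**
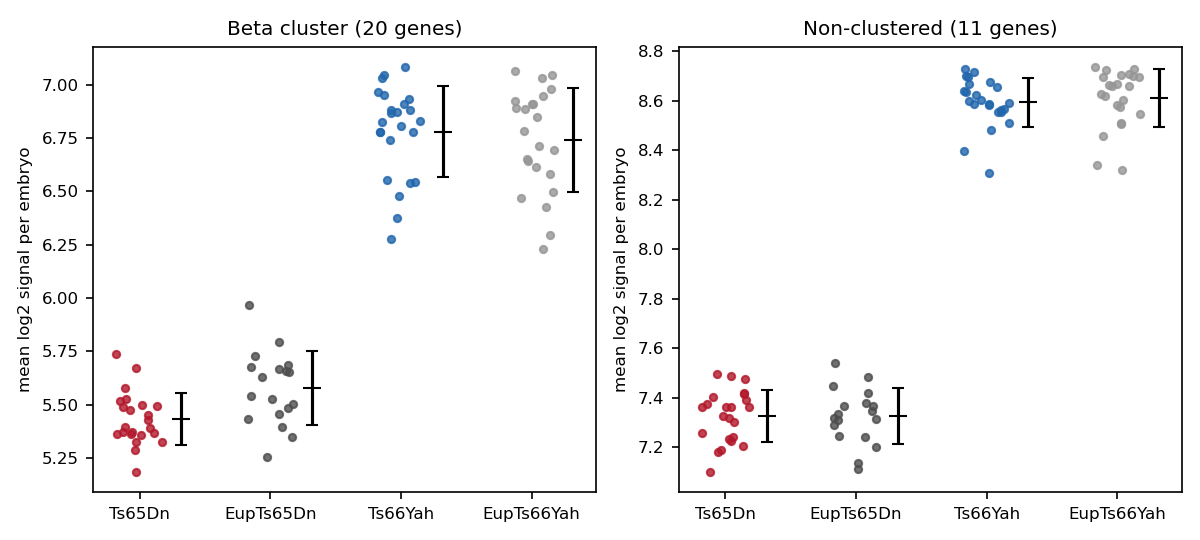
Mean log2 signal (vertical axes) of the 20 beta genes (left) and the 11 non-clustered genes (right), 1 point per embryo, by genotype group; bars give mean and SD, and the low-spread array is left out. The beta mean of Ts65Dn embryos (5.43) lies under that of EupTs65Dn (5.58), with overlap, and the 2 colonies lie at different levels.

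Gene by gene, 17 of the 20 beta genes had a lower mean in Ts65Dn, with a median log2 difference of -0.20, and 7 had an unadjusted p under 0.05. Over all 22206 probe sets the median was -0.0021 and 1285 had an unadjusted p under 0.05. After Benjamini-Hochberg adjustment over all probe sets at 10%, limma called 0 of the 31 genes, where 0.491% of all probe sets were called. The t-test of the study's methods called 1 of them, Pcdhb17, as did quantile normalization, centring on the array median and array weights. The 6 smallest p-values among the beta genes belonged to Pcdhb15, Pcdhb16, Pcdhb17, Pcdhb18, Pcdhb19 and Pcdhb20, which are neighbours on the chromosome. In these 6 the log2 difference lay between -0.32 and -0.19, and all 6 had an unadjusted p under 0.05. In the other 14, Pcdhb1 to Pcdhb14, it lay between -0.36 and 0.10, and 1, Pcdhb7, had an unadjusted p under 0.05. This division of the row was made after the values were seen.

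Pcdhb17 was nearest to the threshold. Its signal ran from 5.87 to 6.70 with a median of 6.37 in Ts65Dn, and from 6.07 to 6.99 with a median of 6.63 in EupTs65Dn. Most Ts65Dn embryos were low within the EupTs65Dn range: 21 of 23 lay under the EupTs65Dn median, and 1 under the lowest EupTs65Dn embryo. The log2 difference was -0.26 (SE 0.070, 0.833-fold, adjusted p = 0.11). Pcdhb16 ran from 5.52 to 6.54 with a median of 6.09 in Ts65Dn, and from 5.94 to 6.91 with a median of 6.39 in EupTs65Dn. Of the Ts65Dn embryos 22 lay under the EupTs65Dn median and 6 under the lowest EupTs65Dn embryo. Its difference was -0.32 (SE 0.093, 0.803-fold, adjusted p = 0.24). Without litter TS125 both genes were called, and without litter TS18 Pcdhb17 was.

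Pcdhb18 ran from 5.75 to 6.58 with a median of 6.10 in Ts65Dn, and from 5.88 to 6.86 with a median of 6.27 in EupTs65Dn, a difference of -0.20 (SE 0.070, adjusted p = 0.49). For Pcdhb15, Pcdhb19 and Pcdhb20, 19, 22 and 17 of the 23 Ts65Dn embryos lay under the EupTs65Dn median, with log2 differences of -0.21, -0.25 and -0.19. Pcdhb7 had the most negative difference of the row, -0.36, with a wide error (SE 0.15, adjusted p = 0.75): it ran from 3.51 to 5.53 in Ts65Dn and from 3.66 to 5.81 in EupTs65Dn. Only Pcdhb1, Pcdhb2 and Pcdhb6 had a higher mean in Ts65Dn, by 0.08, 0.03 and 0.10. In all 20 genes the 2 groups overlapped. The SD of a beta gene over embryos ran from 0.20 to 0.62 in Ts65Dn embryos and from 0.21 to 0.62 in EupTs65Dn embryos, while the median SD of all probe sets was 0.32 and 0.31 in the same groups.

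Of the non-clustered genes 8 of 11 had a lower mean in Ts65Dn, with a median difference of -0.03, and 0 had an unadjusted p under 0.05. The smallest p-values were those of Pcdh8, Pcdh12 and Pcdh9. Pcdh8, whose product is known in rat neurons as the activity-induced arcadlin, ran from 7.11 to 8.03 with a median of 7.45 in Ts65Dn, and from 7.28 to 7.99 with a median of 7.59 in EupTs65Dn, a difference of -0.11 (SE 0.068, adjusted p = 0.93). Pcdh12, a protocadherin of endothelial cells, ran from 2.83 to 5.11 with a median of 4.43 in Ts65Dn, and from 3.02 to 4.81 with a median of 4.07 in EupTs65Dn. Its difference was 0.22 (SE 0.17, adjusted p = 0.94), and 15 of 23 Ts65Dn embryos lay at or above the EupTs65Dn median. Pcdh9 differed by -0.09 (SE 0.070, adjusted p = 0.95). Pcdh10, Pcdh17 and Pcdh19, which act in axon growth, in basal ganglia circuits and, in zebrafish, in adhesion together with N-cadherin, differed by -0.03, -0.00041 and -0.03.

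**Figure D2:**
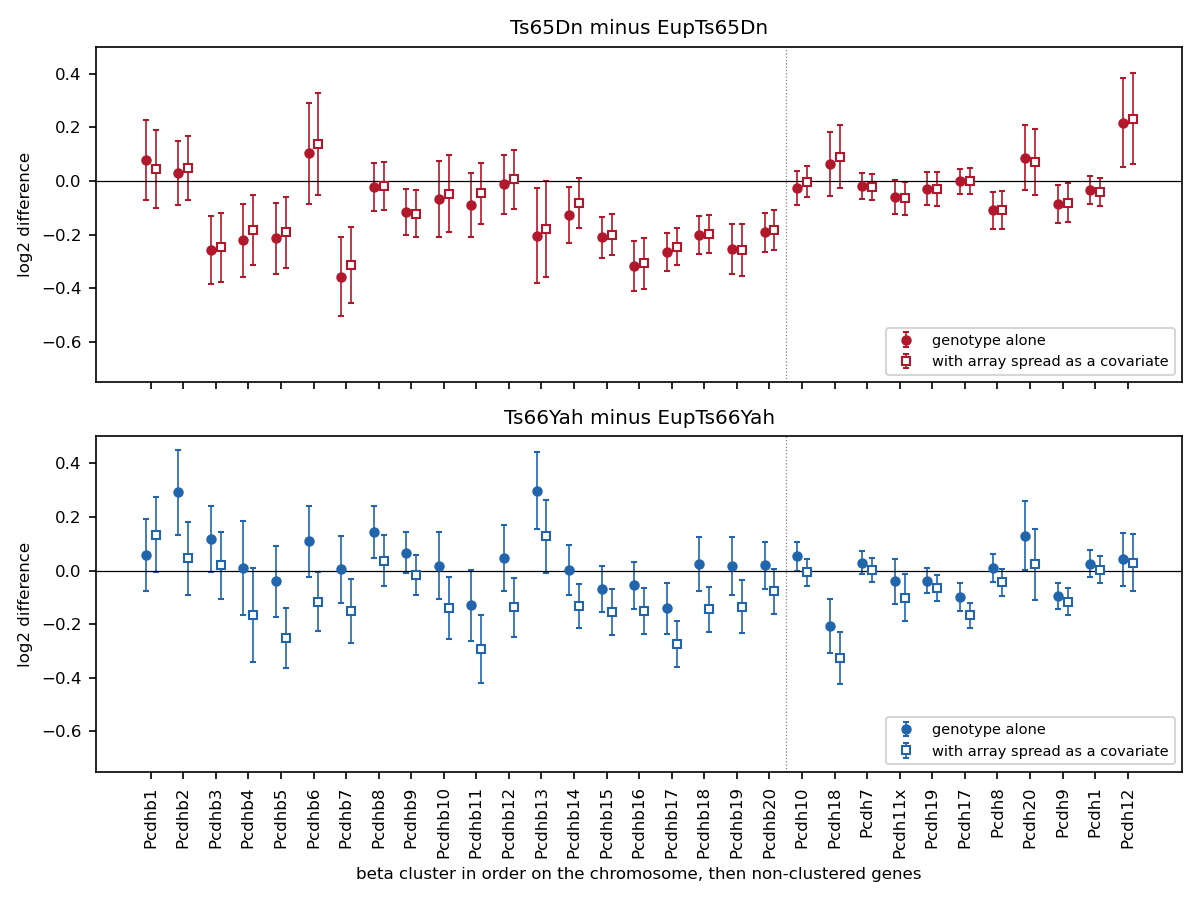
Log2 difference (vertical axes, bars are 1 SE) of each gene, Ts65Dn minus EupTs65Dn above and Ts66Yah minus EupTs66Yah without the low-spread array below. Filled points are from the genotype alone and open points from the fit with array spread as a covariate. In the upper panel Pcdhb15 to Pcdhb20 all lie between -0.32 and -0.19; in the lower panel the covariate moves the beta genes downwards.

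With the array SD as a covariate the Ts65Dn values moved little. Among the beta genes 16 of 20 had a lower mean, the median difference was -0.18 and 7 had an unadjusted p under 0.05. Over all probe sets the median was -0.00092 and 5.91% had such a p. Pcdhb15 to Pcdhb20 lay between -0.31 and -0.18, and Pcdhb17 was at -0.24 (SE 0.068, adjusted p = 0.15). The non-clustered median was -0.02, 0 of 31 genes were called, and 0.558% of all probe sets were. The array SD itself averaged 2.49 ± 0.024 (SD, n = 23) in Ts65Dn and 2.49 ± 0.026 (SD, n = 18) in EupTs65Dn.

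In the Ts66Yah colony the beta genes had no stable direction: it turned with array spread as a covariate, without litter WT18 (14 of 20 beta genes lower, median difference -0.05), without the 6 EupTs66Yah arrays whose SD was under that of every Ts66Yah array, the low-spread array among them (15 of 20 lower, median -0.09), and, once the low-spread array was left out, with the scaling. With all arrays, 15 of 20 beta genes had a higher mean in Ts66Yah (median difference 0.08) and so had 10 of 11 non-clustered genes (median 0.13), while the median of all probe sets was 0.04. Limma called 0 of the 31, where 0.171% of all probe sets were called. The t-test of the series also called 0. At an unadjusted p under 0.05 limma had 1 of the 31, under the share of all probe sets, 10.2%. The non-clustered values rested on the low-spread array. It held a non-clustered mean of 5.59, against 8.32 to 8.73 in the other EupTs66Yah arrays, and a beta mean of 5.83, against 6.23 to 7.07.

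Without that array 15 of 20 beta genes had a higher mean, with a median of 0.02, and 6 of 11 non-clustered genes, with a median of 0.01; 0 of 31 genes and 0.932% of all probe sets were called, and 1 beta gene and 1 non-clustered gene had an unadjusted p under 0.05, as 12.1% of all probe sets did. On the same arrays only 9 of 20 beta genes were higher with litter as a block (median -0.02) and 8 of 20 after quantile normalization (median -0.02). The beta mean of an embryo was 6.78 ± 0.21 (SD, n = 24) in Ts66Yah and 6.74 ± 0.24 (SD, n = 23) in EupTs66Yah, a difference of 0.04 (SE 0.067). The non-clustered mean was 8.59 ± 0.098 (SD, n = 24) in Ts66Yah and 8.61 ± 0.12 (SD, n = 23) in EupTs66Yah, a difference of -0.02 (SE 0.032). In both sets trisomic embryos had the lower mean in 3 of 6 litters. The differences within litters lay between -0.38 and 0.33 for the beta set and between -0.14 and 0.14 for the non-clustered set.

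The beta genes with the smallest p-values were Pcdhb13, Pcdhb2 and Pcdhb8, with differences of 0.30, 0.29 and 0.14 without the low-spread array (SE 0.14, 0.16 and 0.098; adjusted p = 0.40, 0.46 and 0.57). With all arrays they were 0.27, 0.37 and 0.16. Pcdhb13 ran from 5.19 to 6.55 with a median of 6.23 in Ts66Yah, and from 3.92 to 6.85 with a median of 5.87 in EupTs66Yah. Its Ts66Yah embryos lay inside the EupTs66Yah range. In the Ts65Dn colony the same 3 genes were at -0.20, 0.03 and -0.02. Pcdhb17 was at -0.14 (SE 0.095) in Ts66Yah, with 19 of 24 embryos under the EupTs66Yah median.

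Among the non-clustered genes Pcdh18, Pcdh9 and Pcdh17 had the smallest p-values without the low-spread array. Pcdh18 ran from 7.41 to 8.69 with a median of 8.24 in Ts66Yah, and from 7.60 to 8.89 with a median of 8.41 in EupTs66Yah, a difference of -0.21 (SE 0.10, adjusted p = 0.41). Pcdh17 ran from 9.42 to 10.08 with a median of 9.84 in Ts66Yah, and from 9.47 to 10.11 with a median of 9.90 in EupTs66Yah. The groups overlapped, with 20 of 24 Ts66Yah embryos under the EupTs66Yah median, and the difference was -0.10 (SE 0.051, adjusted p = 0.44). Pcdh9 was at -0.10 (SE 0.048, adjusted p = 0.41). With all arrays the 3 smallest p-values were those of Pcdh10, Pcdh20 and Pcdh1, at 0.22, 0.16 and 0.16 (adjusted p = 0.59, 0.60 and 0.61), and without the low-spread array these stood at 0.05, 0.13 and 0.03.

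**Figure D3:**
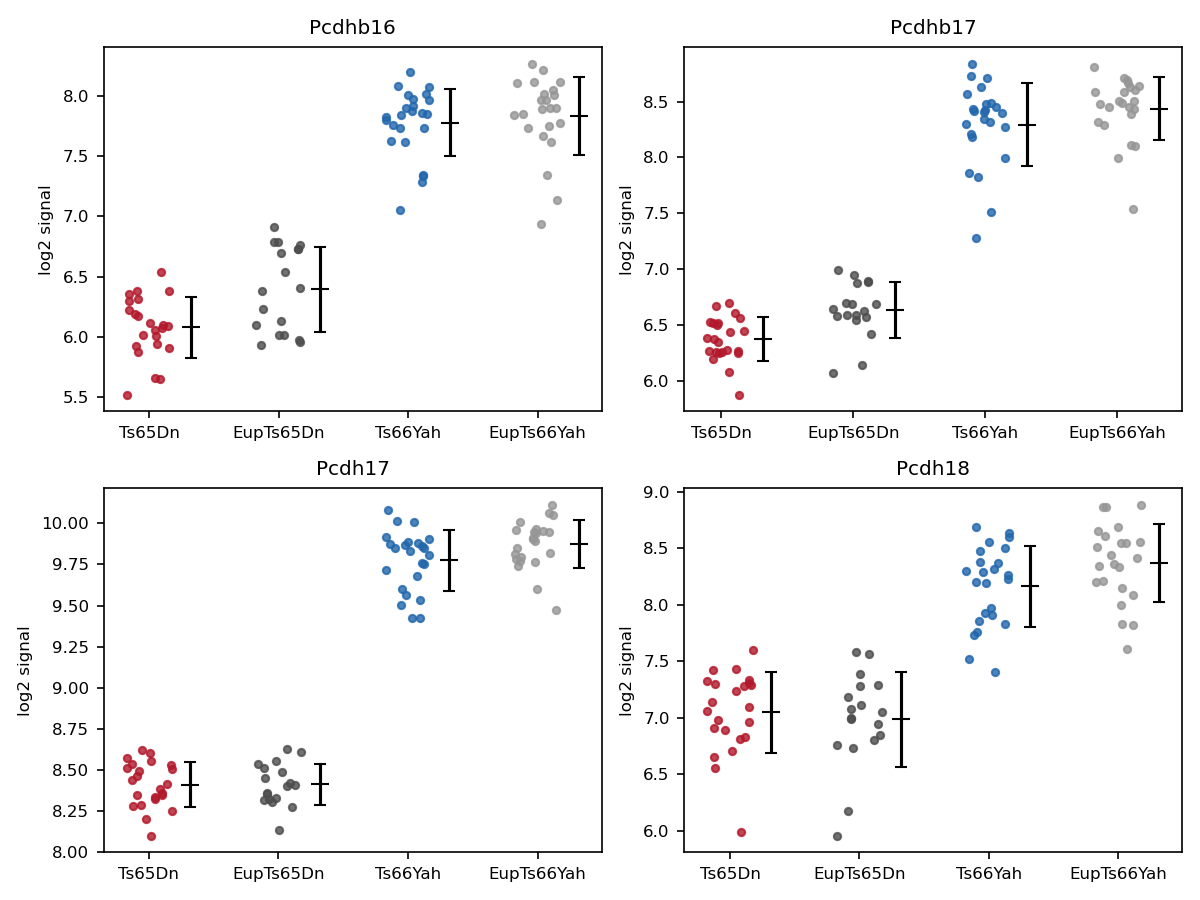
Log2 signal (vertical axes) of Pcdhb16, Pcdhb17, Pcdh17 and Pcdh18 in each embryo by group, with mean and SD; the low-spread array is left out and each panel has its own range. Most Ts65Dn points of Pcdhb16 and Pcdhb17 lie low within the EupTs65Dn range, and 6 and 1 lie under it. Ts66Yah points of Pcdh17 and Pcdh18 overlap those of EupTs66Yah.

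With array SD as a covariate and without the low-spread array, 15 of 20 beta genes had a lower mean in Ts66Yah and the median difference was -0.14. Pcdhb17 was at -0.28 (SE 0.086, adjusted p = 0.22), Pcdh17 at -0.17 (SE 0.047, adjusted p = 0.15) and Pcdh18 at -0.33 (SE 0.096, adjusted p = 0.20). In that fit 0 of 31 genes and 0.41% of all probe sets were called. An unadjusted p under 0.05 was found for 3 beta and 3 non-clustered genes, and for 10.3% of all probe sets. With the covariate and all arrays Pcdh17 was called, at -0.18 (SE 0.046, adjusted p = 0.055), where 1.26% of all probe sets were called, and that call was absent without the low-spread array. The array SD averaged 2.36 ± 0.0255 (SD, n = 24) in Ts66Yah and 2.33 ± 0.048 (SD, n = 23) in EupTs66Yah.

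The difference between the effects of the 2 models was tested in 1 fit of all arrays. Below 0, that is with the Ts65Dn effect under the Ts66Yah effect, were 17 of 20 beta genes (median -0.24) and 9 of 11 non-clustered genes (median -0.11), beside a median of -0.05 over all probe sets. Limma called 0 of the 31, where 0.00901% of all probe sets were called, and 4 of the 31, all of them beta genes, had an unadjusted p under 0.05, as 7.05% of all probe sets did. The smallest p-values were those of Pcdhb16, Pcdhb13 and Pcdhb3, at -0.38 (SE 0.18), -0.48 (SE 0.23) and -0.36 (SE 0.18), each with an adjusted p of 0.71. Of the non-clustered genes Pcdh8 (-0.28, SE 0.19), Pcdh10 (-0.25, SE 0.20) and Pcdh1 (-0.19, SE 0.16) came nearest, with adjusted p = 0.73, 0.74 and 0.74. Without the low-spread array 0 of 31 were called again, beside 0.149% of all probe sets, and the beta median was -0.18. There 3 beta genes and 0 non-clustered genes had an unadjusted p under 0.05, as 7.14% of all probe sets did. With spread as a covariate as well the beta median was -0.05. In that fit 0 beta genes and 2 non-clustered genes had such a p, as 5.65% of all probe sets did. A difference between the models was thus not shown for any of the 31 genes.

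Many beta genes passed the test for array spread, which is the SD of an array's log2 values. In the Ts66Yah colony, in the fit with genotype and array SD and without the low-spread array, 19 of 20 beta genes rose with the array SD, Pcdhb1 being the exception, and the median slope was 0.55 log2 units per 0.1 of SD. Of the non-clustered genes Pcdh8, Pcdh10, Pcdh17, Pcdh18 and Pcdh20 rose, all 11 slopes were above 0, and their median was 0.20. The same call, higher with spread, was made for 24.2% of all probe sets, whose median slope was 0.03. The 8 arrays of lowest SD (2.23 to 2.31) held beta means of 6.23 to 6.58 with a median of 6.45. The 8 of highest SD (2.38 to 2.40) held 6.83 to 7.07 with a median of 6.89, and these ranges did not overlap. Spread and genotype were mixed in this division: 2 Ts66Yah and 6 EupTs66Yah arrays made up the lowest 8, and 6 Ts66Yah and 2 EupTs66Yah arrays the highest 8. For the non-clustered set they did overlap, at 8.32 to 8.66 and 8.56 to 8.73.

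**Figure D4:**
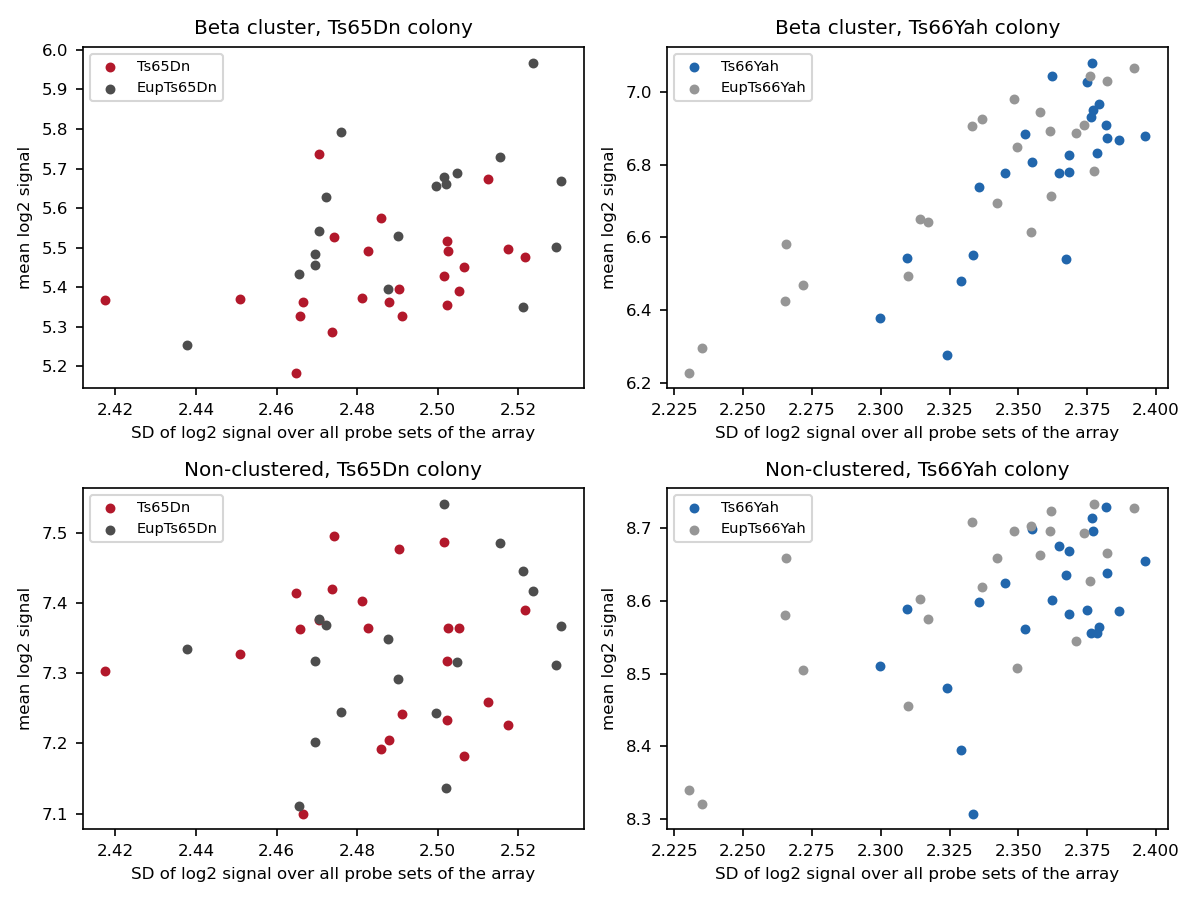
Mean log2 signal of the beta set (upper row) and of the non-clustered set (lower row) in each embryo (vertical axes) against the SD of the array's log2 values (horizontal axes), by colony and group, without the low-spread array. In the Ts66Yah colony the 8 arrays of lowest SD have beta means of 6.23 to 6.58 and the 8 of highest SD 6.83 to 7.07.

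The pattern was present inside each genotype group of this colony. Within Ts66Yah alone 8 beta and 4 non-clustered genes rose with spread (beta median 0.62), beside 9.13% of all probe sets. Within EupTs66Yah alone it was 15 and 3 (beta median 0.49), beside 15.9%. With litter as a block the counts in the whole colony were 19 and 5, as without it. With the low-spread array kept, 13 beta genes rose and 1 fell, and 10 non-clustered genes rose. In that fit 10208 of all 22206 probe sets rose and 8181 fell. The steepest slopes were those of Pcdhb2 (0.89, SE 0.17, adjusted p = 0.00020), Pcdhb6 (0.81, SE 0.14, adjusted p = 4.3e-05) and Pcdhb5 (0.76, SE 0.14, adjusted p = 0.00012). Pcdhb18 had a slope of 0.61 (SE 0.11, adjusted p = 5.9e-05), and the other 15 beta genes that rose lay between 0.29 (Pcdhb9, SE 0.094, adjusted p = 0.015) and 0.66 (Pcdhb12, SE 0.14, adjusted p = 0.00041). Pcdhb1 was at -0.27 (SE 0.18, adjusted p = 0.23). Pcdhb17 stood at 0.49 (SE 0.11) and Pcdh17, with the smallest p-value of the non-clustered genes, at 0.25 (SE 0.059, adjusted p = 0.0014). The slopes of Pcdh18, Pcdh10, Pcdh8 and Pcdh20 were 0.43, 0.22, 0.20 and 0.38 (adjusted p = 0.0069, 0.0094, 0.016 and 0.073), and the 6 that did not pass ran from 0.04 (Pcdh12) to 0.22 (Pcdh11x, adjusted p = 0.12).

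Slopes also varied with signal, so all probe sets were divided into 4 bins of equal size by mean signal in this colony. The median slopes of all probe sets were -0.25, 0.0077, 0.16 and 0.09 from the dimmest to the brightest bin. The beta genes had median slopes of 0.59 in the second bin (5 genes), 0.56 in the third (12 genes) and 0.42 in the brightest (2 genes), and Pcdhb1, alone in the dimmest, was at -0.27. In the same 3 upper bins 16.8%, 42.1% and 37.1% of all probe sets rose with spread, and 5 of 5, 12 of 12 and 2 of 2 beta genes did. The 9 non-clustered genes of the brightest bin had a median of 0.20, where the middle 50% of its probe sets ran from -0.01 to 0.19. Among these 9, Pcdh8, Pcdh10, Pcdh17 and Pcdh18 rose, beside 37.1% of all probe sets of that bin. Pcdh20 rose in the second bin, beside 16.8%. Only some of the other gene lists and marker lists are given for spread, and their counts stand beside the 24.2% of all probe sets that rose. Of the other families, 19 of 38 other cadherin superfamily genes rose and 1 fell (median 0.18). Of 22 genes of protocadherin promoter choice and silencing 13 rose (median 0.16), and of 17 other neurite recognition genes 8 rose (median 0.18). Cortical excitatory neuron markers had 12 probe sets for 11 genes, of which 5 probe sets rose and 1 fell (median 0.14). Of 9 radial glia markers 6 rose and 1 fell (median 0.23), of 11 cell cycle markers 6 rose (median 0.20), and of 6 pericyte and meningeal markers 3 rose (median 0.25).

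**Figure D5:**
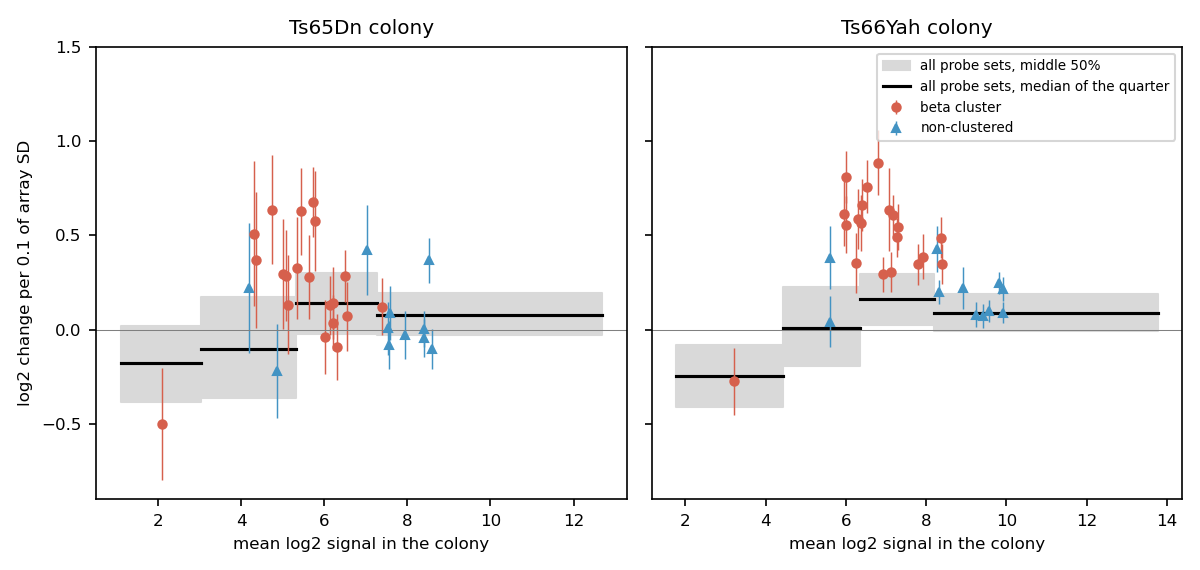
Slope of each gene on array spread (vertical axes, log2 change per 0.1 of array SD, bars are 1 SE) against its mean log2 signal in the colony (horizontal axes). Grey blocks hold the middle 50% of all probe sets of each of 4 bins by signal and black lines their medians. In the Ts66Yah colony the beta genes other than Pcdhb1 lie above the medians of their bins, between 0.29 and 0.89.

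In the Ts65Dn colony the slopes of the beta genes pointed the same way and few passed. Among the beta genes 17 of 20 slopes were above 0 with a median of 0.28, and Pcdhb14 rose with spread (0.68, SE 0.19, adjusted p = 0.042). Of the non-clustered genes Pcdh10 rose (0.37, SE 0.12, adjusted p = 0.082) and 6 of 11 slopes were above 0. The same call was made for 3.63% of all probe sets. It was 6.38% in the third bin by signal in this colony, which held Pcdhb14, and 6.54% in the brightest, which held Pcdh10. The 12 beta genes of the third bin had a median slope of 0.21, where its probe sets had 0.14 (quartiles -0.02 and 0.30). The 6 of the second bin had 0.33, where its probe sets had -0.10 (quartiles -0.36 and 0.17) and 1.53% rose. Pcdhb20, in the brightest, was at 0.12 (bin median 0.08), and Pcdhb1, in the dimmest, at -0.50 (bin median -0.18). Within Ts65Dn alone and EupTs65Dn alone 0 of 31 genes were called, beside 0.369% and 0.00901% of all probe sets, and 13 and 16 of the 20 beta slopes were above 0. The array SD of this colony ran only from 2.42 to 2.53. The cause of the slopes was not tested.

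The promoters of the 5 non-clustered genes that rose with spread in the Ts66Yah colony are shown. The same call was made for 24.2% of all probe sets there. It was 37.1% in the brightest bin by signal, which held Pcdh8, Pcdh10, Pcdh17 and Pcdh18, and 16.8% in the second, which held Pcdh20. Whether these 5 genes vary together was not tested. The 250 bases before the transcript start are given from RefSeq (GRCm38.p6), 5′ to 3′ on the strand of the gene. CGCT, the core of a conserved element of clustered protocadherin promoters, is in capitals on either strand (AGCG is its reverse complement, and both can overlap). The windows are chr14:79771313-79771562 (minus strand) for Pcdh8, chr3:45378148-45378397 (plus) for Pcdh10, chr14:84443313-84443562 (plus) for Pcdh17, chr3:49757317-49757566 (minus) for Pcdh18 and chr14:88471397-88471646 (minus) for Pcdh20.
Pcdh8: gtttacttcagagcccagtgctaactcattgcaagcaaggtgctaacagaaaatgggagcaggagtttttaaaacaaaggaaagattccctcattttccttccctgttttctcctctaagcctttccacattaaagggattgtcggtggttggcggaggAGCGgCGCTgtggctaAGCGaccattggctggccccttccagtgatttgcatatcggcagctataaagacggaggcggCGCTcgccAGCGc
Pcdh10: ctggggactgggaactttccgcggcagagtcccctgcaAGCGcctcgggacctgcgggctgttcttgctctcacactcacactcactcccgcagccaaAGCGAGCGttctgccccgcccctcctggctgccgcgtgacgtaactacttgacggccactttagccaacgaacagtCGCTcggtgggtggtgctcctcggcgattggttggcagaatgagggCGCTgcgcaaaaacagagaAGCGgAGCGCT
Pcdh17: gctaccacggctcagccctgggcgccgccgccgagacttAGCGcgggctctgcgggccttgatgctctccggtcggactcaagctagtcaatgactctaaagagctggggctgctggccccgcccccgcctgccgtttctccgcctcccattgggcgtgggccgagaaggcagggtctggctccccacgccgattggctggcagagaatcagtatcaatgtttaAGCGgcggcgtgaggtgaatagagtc
Pcdh18: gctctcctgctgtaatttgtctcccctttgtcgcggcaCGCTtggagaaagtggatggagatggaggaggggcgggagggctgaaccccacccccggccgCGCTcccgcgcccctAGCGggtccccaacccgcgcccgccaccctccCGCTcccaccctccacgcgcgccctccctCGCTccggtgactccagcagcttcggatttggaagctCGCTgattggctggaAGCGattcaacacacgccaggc
Pcdh20: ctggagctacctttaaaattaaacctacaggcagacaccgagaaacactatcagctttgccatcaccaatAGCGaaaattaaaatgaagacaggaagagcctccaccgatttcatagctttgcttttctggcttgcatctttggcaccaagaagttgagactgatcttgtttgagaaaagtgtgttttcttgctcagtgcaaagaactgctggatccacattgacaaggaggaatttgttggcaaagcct
The 4 letters occur 5, 8, 2, 7 and 1 times in the windows of Pcdh8, Pcdh10, Pcdh17, Pcdh18 and Pcdh20. RefSeq promoters were at hand for 8 of the non-clustered members, and those of Pcdh7, Pcdh9 and Pcdh19, whose slopes did not pass, hold 3, 2 and 3. Of 32851 RefSeq promoters, 55.7% hold at least 1 in the same window and the median is 1, so a match here is common and describes only the letters.

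None of the 31 genes was called for litter or for sex. The limma F-test over the 6 litters of a colony called 0 of 31 in the Ts65Dn colony (0.378% of all probe sets) and 0 of 31 in the Ts66Yah colony (0.0901%). At an unadjusted p under 0.05 it was 5 beta genes and 1 non-clustered gene in the Ts65Dn colony, and 2 and 0 in the other, where 10.7% and 11.5% of all probe sets did. The smallest were Pcdhb6, Pcdhb12 and Pcdhb20 (adjusted p = 0.23, 0.27 and 0.28) with Pcdh11x (0.33) in the Ts65Dn colony, and Pcdhb4 and Pcdhb5 (adjusted p = 0.24 and 0.34) in the Ts66Yah colony. Litter means of the beta set lay between 5.41 and 5.62 in the Ts65Dn colony and between 6.63 and 6.89 in the Ts66Yah colony.

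Male embryos were compared with female ones by their labels. In both colonies 15 of 20 beta genes had a lower mean in males, with medians of -0.13 in the Ts65Dn colony and -0.04 in the Ts66Yah colony, and 0 of 31 were called. Calls were made for 0.0675% and 0.401% of all probe sets, and 3 beta genes of the Ts65Dn colony and 0 of the Ts66Yah colony had an unadjusted p under 0.05, as 5.76% and 4.97% of all probe sets did. Without the arrays whose Y-linked genes went against the label, 19 of 20 were lower in males in the Ts65Dn colony (median -0.17) and 17 of 20 in the Ts66Yah colony (median -0.09). In these fits 5 and 0 beta genes had an unadjusted p under 0.05, as 6.64% and 5.06% of all probe sets did, and 0 of 31 were called. With litter as a block it was 16 of 20 in the Ts65Dn colony (median -0.07) and 12 of 20 in the Ts66Yah colony (median -0.02). In the Ts66Yah colony it was 10 of 20 with all arrays (median -0.0039). Pcdhb12, Pcdhb2 and Pcdhb17 had the smallest p-values in the Ts65Dn colony, at -0.31 (SE 0.099), -0.32 (SE 0.11) and -0.16 (SE 0.067), with adjusted p = 0.56, 0.62 and 0.77. The X-linked Pcdh19, known in humans for an epilepsy that affects mainly heterozygous females, was at 0.07 (SE 0.061, adjusted p = 0.91) in the Ts65Dn colony. The X-linked Pcdh11x was at -0.13 (SE 0.084, adjusted p = 1.0) in the Ts66Yah colony.

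Genes that act with protocadherins were read from lists. In Ts65Dn 0 of 22 genes of promoter choice and silencing (Ctcf, cohesin, DNA methyltransferases and others) were called, with 14 lower means and a median of -0.02. Of 11 partners inside the cell, WAVE complex subunits and kinases, 0 were called (median 0.02). Of 38 other cadherin superfamily genes 0 were called and 26 had lower means (median -0.05). Of 17 other neurite recognition genes only Dscam, a self-avoidance molecule encoded in the triplicated part, was called, and it rose 1.39-fold (log2 0.48, SE 0.057, adjusted p = 2.0e-07). In Ts66Yah without the low-spread array it rose 1.32-fold (log2 0.40, SE 0.054, adjusted p = 1.8e-06), and it did not pass with all arrays (adjusted p = 0.28). The other 3 lists again had 0 calls there, with medians between 0.00018 and 0.03.

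Markers of cell types were set beside the beta values of Ts65Dn. Cortical excitatory neuron markers averaged 8.01 to 8.43 in Ts65Dn embryos and 8.18 to 8.39 in EupTs65Dn embryos. Midbrain and hindbrain markers averaged 3.25 to 4.03 in Ts65Dn embryos and 3.17 to 3.70 in EupTs65Dn embryos, and 5 of 6 had a higher mean in Ts65Dn (median 0.12). The excitatory list had 12 probe sets for 11 measured genes, and 10 of the probe sets had a lower mean in Ts65Dn (median -0.07). Of 11 cell cycle markers 9 had a lower mean (median -0.05), of 4 intermediate progenitor markers 3 (median -0.10) and of 12 GABAergic interneuron markers 8 (median -0.03). Of 8 oligodendrocyte lineage markers 6 had a higher mean (median 0.11). So had 5 of 9 radial glia (median 0.02), 4 of 6 pericyte and meningeal (median 0.10) and 3 of 4 choroid plexus markers (median 0.03). A lower mean was found in 4 of 6 astrocyte (median -0.02), 5 of 8 endothelial (median -0.0042) and 3 of 5 diencephalon markers (median -0.01). Microglia markers were higher in 3 of 6 (median 0.0015), and the 1 erythroid probe set was lower (-0.07). None of these markers was called in Ts65Dn. In Ts66Yah 1 of 8 oligodendrocyte lineage markers, the myelin gene Mbp, rose with all arrays (1.61-fold, adjusted p = 0.093, beside 0.171% of all probe sets called) and without the low-spread array (1.53-fold, adjusted p = 0.050, beside 0.932%). Of 9 radial glia markers, 1, Vim, rose without that array (1.14-fold, adjusted p = 0.085). With spread as a covariate and without the low-spread array 0 of these 8 and 0 of these 9 were called. The part of cell makeup in the protocadherin values was not tested.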

How the data were processed

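RNA of 89 forebrains was measured on Clariom S arrays. The authors deposited 1 log2 signal per probe set and array, and the submitters' processing notes name RMA. Its version and settings, and a genome build, were not given in the sources used here.

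Genotypes were compared in each colony with limma 3.58.1 in R 4.3.3 (lmFit and eBayes, two-sided, all 22206 probe sets, Benjamini-Hochberg, threshold 0.1). Further fits tested the difference of effects over all arrays, array SD, litter (F-test) and labelled sex. Spread, litter and sex fits of the Ts66Yah colony left out the low-spread array. The scripts were tested on simulated data. Set means carry no p-value. Plots used Python 3.11.15 and matplotlib 3.10.9.

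The members, lists and alternatives were chosen with earlier results of these data known. A member received full statistics where it passed the threshold or was among the 3 smallest p-values of its set in a comparison. Some values were given outside this rule and with the results known, such as those of Pcdhb7 in Ts65Dn and Pcdhb17 in Ts66Yah. For the spread term, where many passed, the rest are given by their range. Names came from the platform's annotation table: 19572 probe sets had 1 symbol, 0 several and 2634 none. Litters are dams named in the labels, and embryos of a litter share a mother; replicate numbers pair no embryos across groups. Sex labels were kept, and 17 arrays with contrary Y-linked signals were left out in an alternative only. Settings added after seeing the data were quantile normalization, the interquartile range as a covariate, each litter left out in turn (Ts66Yah comparison) and litter as a block (difference of effects), all without the low-spread array, and the spread term within each group alone or with litter as a block.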

Additional observations from a re-analysis of the deposited data

How the results depend on the processing

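In Ts65Dn against EupTs65Dn the count of beta genes past the threshold was 0, and it was 1 (Pcdhb17) with sex as a covariate, with the methods' t-test, with a filter on signal at its lower quartile or at its median, with quantile normalization, with centring on the array median, with array weights and without the array at the other genotype's level. Those fits called between 111 and 120 of all probe sets tested (22206, or 16654 and 11103 with the filters), beside 109 in the main fit. Leaving out 1 litter gave between 0 and 2 beta genes: 2 without litter TS125 (Pcdhb16 and Pcdhb17) and 1 without litter TS18. The beta set mean difference lay between -0.18 and -0.11 over the 6 litters left out, and was -0.13 with litter as a replicate block, which moved no call. In Ts66Yah against EupTs66Yah the non-clustered count was 0, and 1 (Pcdh17) with array spread or the array interquartile range as a covariate on all arrays. The beta set mean difference there, 0.08 with all arrays, was 0.02 with litter as a replicate block and -0.10 with spread as a covariate, both without the low-spread array, and lay between -0.04 and 0.12 over the litters left out. Differences of Pcdh1 turned to -0.042, -0.058 and -0.0030, and of Pcdh10 to -0.036, -0.057, -0.0068 and -0.0072, with the SD or interquartile range as a covariate on all arrays or without the low-spread array (for Pcdh1 the SD without that array gave no change of sign). Over the litters left out, Pcdh1 lay between -0.0069 and 0.23, Pcdh10 between -0.0038 and 0.29, and Pcdh20 between -0.046 (without litter WT18) and 0.28. The difference of effects of Pcdh10 was 0.0051 with spread as a covariate and without the low-spread array. The spread term called 1 beta and 1 non-clustered gene in the Ts65Dn colony and 0 within each group alone. In the Ts66Yah colony 19 beta genes became 8 within Ts66Yah alone, and 5 non-clustered genes became 3 within EupTs66Yah alone and 10 with all arrays. With all arrays 10208 of all 22206 probe sets rose and 8181 fell. The causes were not tested. Over all probe sets the Ts66Yah comparison called 38 on all arrays, 207 once the low-spread array was left out, 279 with spread as a covariate and 91 with both, and the difference of effects called 2 and, without that array, 33.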
